A study of Mus musculus with 24 samples.

Results

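The genes described here are the 274 genes of mouse chromosome 14 that were well covered on both alleles of an F1 hybrid embryonic stem cell line, out of 1971 chromosome 14 genes in the count table, 1127 of them with any count, and 48985 genes in all. A gene was taken when its mean over 22 libraries was at least 50 counts on the 129S1 allele and at least 50 on the CAST allele, with positions from GENCODE M21 (mouse build mm10). The 2 libraries of d3 clone 21 were left out of that mean, so their counts did not choose the members, whereas the counts of the other 22 libraries did. Of the 274 members, 257 were protein coding, 9 were processed pseudogenes and 8 were of other types. The last along the chromosome was Tm9sf2, at chromosome 14, 122107038 to 122159604. On the other chromosomes 7085 genes met the same count rule.

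The libraries were made from polyA RNA of the female line F121/9, which carries a CAST/EiJ and a 129/Sv copy of each chromosome and was grown without serum in 2i with LIF. The study examined clones recovered after recombination at 5 places, named d3, d6, i7, i10 and i12 in the labels, each against its own parental line. The 12 groups were the d3 parental line with clones 12 and 21, the d6 parental line with clone 16, the i7 parental line with clones 7 and 12, the i10 parental line with clone 18, and the i12 parental line with clone 10, and every group had 2 libraries, described as biological duplicates. Parental lines carry the genotype label control and clones the label recombined. The labels do not give the site of each recombination, each recombined group is a single clone, and the p-values therefore compare libraries of these clones with those of their parental lines. DNA copy number was not analysed here.

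In a hybrid of inbred strains, a read over a base that differs between the strains can be given to the allele it came from. Both alleles share the same nucleus and the same regulatory proteins, so a lasting difference between their counts in a hybrid is usually read as a cis effect, carried by the DNA of the allele itself. A chromosome that comes wholly from the strain with the higher allele would by itself give a higher total, and the reverse holds for the strain with the lower allele. In d3 clone 21 most members went from counts on both alleles to counts almost wholly on CAST, which let each member's total be compared with the total its own allelic ratio gives.

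Library totals, as the sum of both alleles over all genes, ran from 3286819 to 15581094 counts, and the 4 libraries of d3 clone 21 and its parental line held between 10383315 and 12618992. Of the listed markers of naive pluripotency 9 were in the table, among them Pou5f1, Sox2 and Nanog, and summed to between 6180 and 8652 CPM (the usual per-library scaling of counts to a common depth, with trimmed mean of M-values factors) in the 24 libraries. Markers of primitive endoderm summed to 2.90 to 12.2 CPM and those of fibroblasts to 3.93 to 25.7 CPM. Those of primed or epiblast cells summed to 29.3 to 242 CPM. Mesoderm markers summed to 4.23 to 60.8 CPM and neural markers to 29.97 to 78.2 CPM. The early-embryo markers Zscan4c and Zscan4d had 0 counts in every library, and the 4 early-embryo markers together summed to at most 3.89 CPM. None of the markers tested differed between d3 clone 21 and its parental line (edgeR's quasi-likelihood test, 0 called and 0 at an unadjusted p under 0.05 in each of the 7 marker lists).

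Outside d3 clone 21 the median member had a 129S1 share between 49.3% and 55.7% of its allelic counts. The 2 libraries of the i12 parental line stood above the others, with median shares of 53.0% and 55.7%, while the remaining 20 libraries lay between 49.3% and 51.0%. In d3 clone 21 the median member's share was 0.536% in replicate 1 and 0.646% in replicate 2. The pooled 129S1 share of member counts in those libraries was higher, 20.8% and 19.3%, against 51.4% to 56.7% elsewhere. As a part of each library, the members took 2.53% and 2.57% of all counts in d3 clone 21, inside the range of 2.42% to 2.70% of the other 22 libraries.

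**Figure D1:**
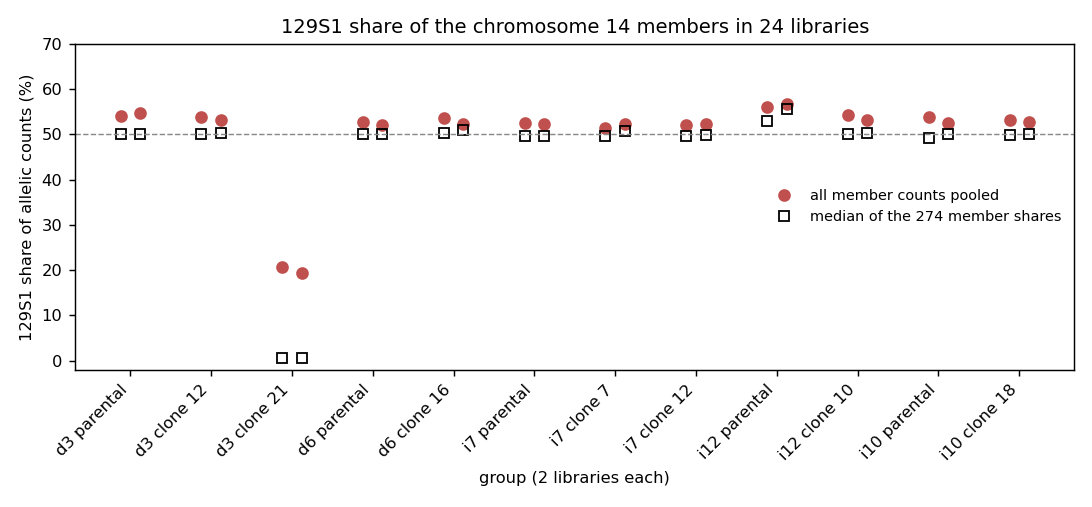
Share of allelic counts given to 129S1 (percent, y axis) in the 2 libraries of each of the 12 groups (x axis), pooled over the 274 members (filled circles) and as the median member (open squares). Both d3 clone 21 libraries sit near 20% pooled and under 1% at the median, and the i12 parental libraries have the highest medians, 53.0% and 55.7%.

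Relative to the mean of the d3 parental libraries, the median member of d3 clone 21 differed by -6.00 and -5.69 on the log2 scale in its 129S1 counts, by 0.96 and 0.97 in its CAST counts and by 0.04 and 0.04 in its total, in replicates 1 and 2. On the other chromosomes the same medians lay between -0.01 and 0.00 for 129S1, CAST and total counts. By edgeR's quasi-likelihood test at an adjusted p under 0.05, 243 members had lower 129S1 counts, where 2.59% of the 13919 genes tested were called lower. By the same test 67 members had higher CAST counts, where 0.495% of 13951 genes were called higher. The allelic ratio was lower in 260 of 274 members, against 3.28% of 10795 genes called lower. These 3 counts describe the change that set the clone apart and are not used as evidence for anything else.

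How completely a member lost its 129S1 counts differed widely between members. In d3 clone 21, 29 members had 0 counts on 129S1 in both libraries, which allows shares of up to 0.152% for the deepest of them and 3.57% for the shallowest (3 counts of the total, counting error only). A further 127 members had a share above 0 and under 1%, and 52 had a share from 1% to 5%. Together these are the 208 members with under 5% left, called separated members below, and their pooled 129S1 share was 0.679%. The other 66 members kept 5% or more: 29 members between 5% and 20%, 19 members between 20% and 50%, and 18 members at 50% or above. Those 18 members held 95919 of the 124309 member counts on 129S1 in the clone. Their median 129S1 share was also far from even in the other 22 libraries, at 83.5%, against 49.1% in the separated members.

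**Figure D2:**
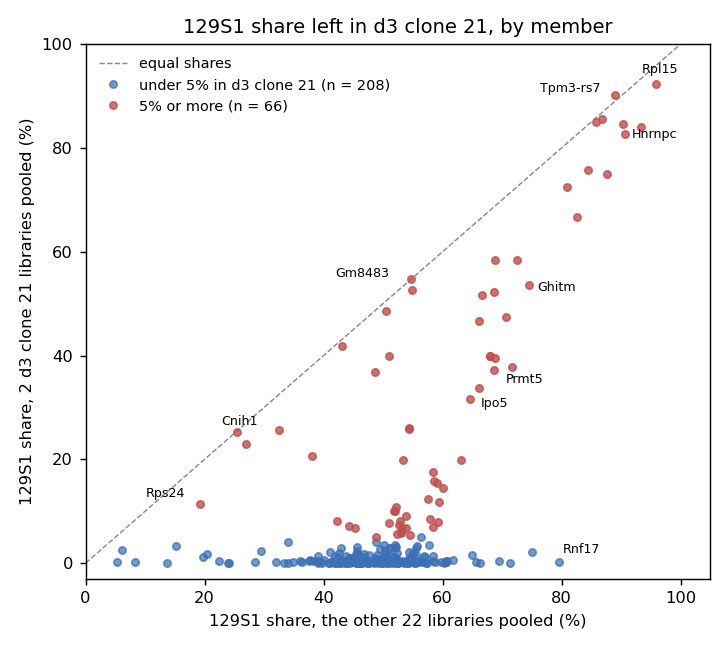
Each point is a member, with its 129S1 share in the other 22 libraries pooled (percent, x axis) and in the 2 d3 clone 21 libraries pooled (percent, y axis). Separated members (blue, n = 208) lie along the bottom at under 5%, and the 66 others (red) rise towards the line of equal shares, among them Rpl15 and Tpm3-rs7.

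Rpl15, a protein of the large ribosomal subunit, shows the upper end of this range. Its 129S1 share was 94.4% and 95.5% in the d3 parental libraries and 91.0% and 93.8% in d3 clone 21, so the groups were separated by less than 1 percentage point at their closest. Hnrnpc, which binds nascent transcripts, had 88.9% and 93.1% in the parental line and 83.9% and 85.5% in the clone. Tpm3-rs7, a tropomyosin-related sequence, had 90.1% and 86.3% and then 89.6% and 90.6%, with overlapping groups. The 9 processed pseudogenes, copies of transcripts of other genes, kept a median of 48.5% of their counts on 129S1, from 1.19% in the lowest to 85.6% in Gm8416, while the 257 protein-coding members kept a median of 0.512%.

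The share of a member's transcript sequence that is also found in transcripts of other genes was computed as the part of its 31-base words that occur there. Its median was 0.6% in the separated members, 1.64% in the 48 members with 5% to 50% left, and 23.6% in the 18 members with 50% or more left. Hnrnpc had 13.7%, Rpl15 23.5%, Tpm3-rs7 78.6% and Gm6158 92.8%, whereas Pabpn1, a nuclear poly(A)-binding protein with 74.9% left, had 2.68%. Among the separated members, 3 also shared over 50% of their words. The part of shared sequence in the counts left on 129S1 was not tested. Which reads were given to an allele when they fitted both is not given in the sources used here, and no library held chromosome 14 from 129S1 alone, so the opposite case, 129S1 reads given to CAST, could not be measured.

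Total counts asked whether the members' output differed when chromosome 14 counts moved to CAST. The answer for the members at large was close to no change: the median log2 difference was 0.03 over the 274 members and -0.014 over all 16253 genes tested, with members between -1.16 and 0.90. No member was called by edgeR's quasi-likelihood test, where 0.0554% of all genes were, and 25 members (9.12%) had an unadjusted p under 0.05, against 2.38% of all genes. All 274 members had passed the filter on low counts. The median standard error of a member was 0.23 on the log2 scale in this fit, which does not pair libraries by replicate number. The spread between libraries (edgeR's common coefficient of variation) was 0.246 in this fit and 0.119 when the replicate number was a block. The size of change that could be called thus depended on the fit.

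With the replicate number as a block, which fits libraries of the same number together, 4 members were called, all lower in the clone: Rnf17, Nek4, Oxnad1 and Glud1, with 0.123% of all genes called in that fit and 0.105% called lower. DESeq2's Wald test called 3 members, also lower: Rnf17, Oxnad1 and Glud1, with 0.0969% of all genes called. Without d3 parental replicate 1, 31 members (11.3%) were called by edgeR's test, where 3.63% of all genes were.

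Rnf17 codes for a Tudor-domain protein of germ cells and lies at 56402581 to 56525032 on the plus strand. Its total was 66.5 and 54.5 CPM in the d3 parental line and 23.6 and 30.4 CPM in d3 clone 21. Both clone libraries lay below both parental libraries, a log2 difference of -1.16 ± 0.24 (SE, n = 2 a group; edgeR adjusted p = 0.202, and 0.00228 with the block). On 129S1 the counts went from 54.7 and 42.7 CPM to 0.082 and 0.085 CPM. On CAST they went from 11.7 and 11.8 CPM to 23.5 and 30.3 CPM. In the clone with both alleles, d3 clone 12, the total was 69.5 and 94.4 CPM. Against that clone Rnf17 was lower in clone 21 by edgeR's test (log2 difference -1.60, adjusted p = 0.0111). It was the only member called there, where 0.0492% of all genes were called lower. With the block, Arhgef3, Gm48283 and Gng2 were lower in that comparison too, where 0.0923% of all genes were called lower.

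Oxnad1 codes for an oxidoreductase with an NAD-binding domain, at 32085374 to 32103202 on the plus strand. Its total was 62.1 and 89.5 CPM in the d3 parental line, 58.6 and 65.5 CPM in d3 clone 12 and 35.6 and 43.4 CPM in d3 clone 21. All 4 libraries with both alleles were above both clone 21 libraries (log2 difference from parental -0.94 ± 0.20, adjusted p = 0.291, and 0.00216 with the block). Nek4, a NIMA-related kinase at 30951377 to 30988821 on the plus strand, had 24.2 and 29.9 CPM in the parental line and 10.3 and 16.2 CPM in clone 21, without overlap. Its 2 clone 12 libraries lay at 16.9 and 35.1 CPM, above both clone 21 libraries. The Nek4 difference from parental was -1.03 ± 0.33 (adjusted p = 1.00, and 0.0138 with the block).

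These 3 genes had high 129S1 shares in the other 22 libraries: 79.6% in Rnf17, 75.0% in Nek4 and 71.3% in Oxnad1, so CAST was the lower allele. A total of 2 times the CAST share would give log2 changes of -1.28, -0.97 and -0.77, and the observed totals differed from those values by 0.12, -0.06 and -0.17 (adjusted p = 1.00 for each). Their CAST counts differed from parental by 1.16, 1.17 and 0.99 on the log2 scale. Glud1, the mitochondrial glutamate dehydrogenase, was unlike them. Its 129S1 share was 52.9% elsewhere, and it kept 8.13% in the clone. Its total went from 433 and 464 CPM to 311 and 243 CPM (log2 difference -0.69 ± 0.16, edgeR adjusted p = 0.396, and 0.0154 with the block). Against d3 clone 12 the log2 difference was -0.52 and did not pass the threshold. CAST counts of Glud1 differed by 0.30 on the log2 scale.

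**Figure D3:**
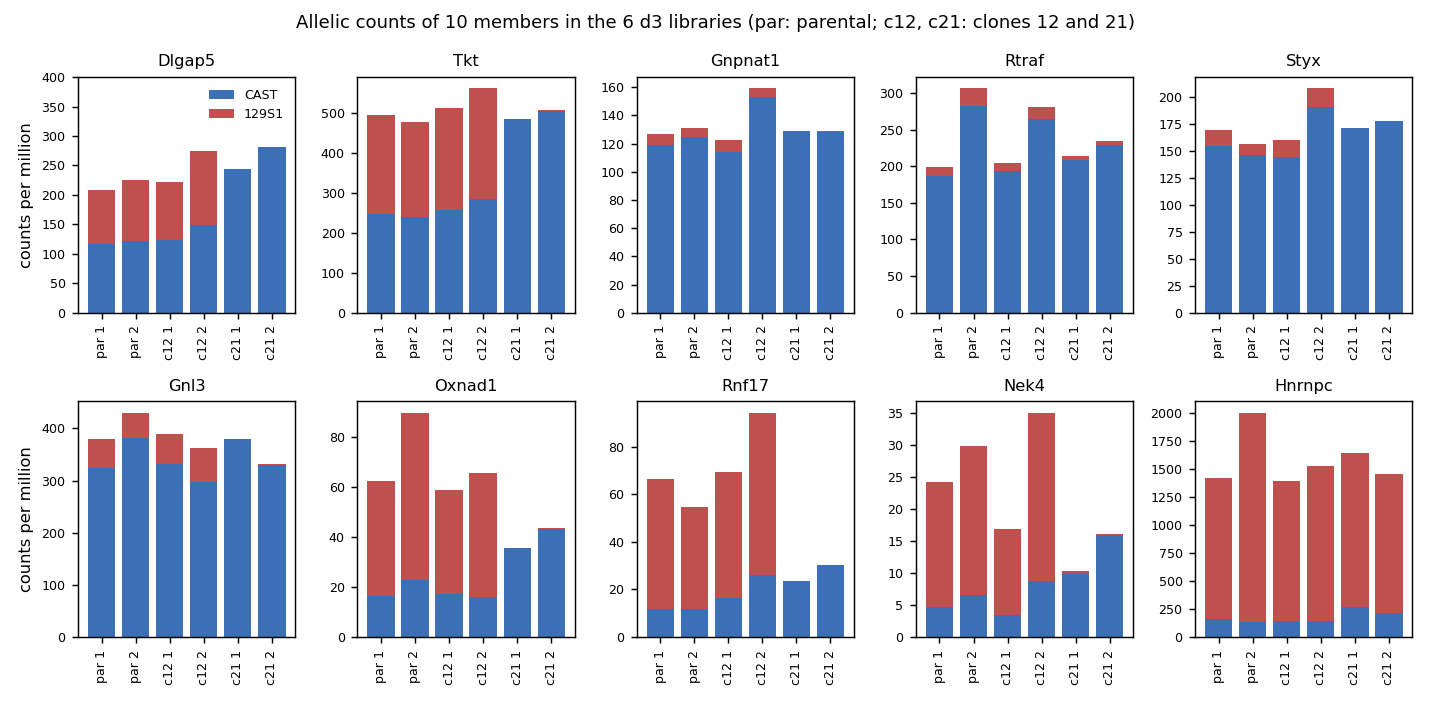
CPM on CAST (blue) and 129S1 (red), stacked, for 10 members in the 6 d3 libraries (x axis: parental, clone 12 and clone 21, replicates 1 and 2); each bar starts at 0. Red is nearly absent from clone 21 except in Hnrnpc, and the clone 21 totals of Oxnad1, Rnf17 and Nek4 are below those of all 4 libraries with both alleles.

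A 129S1 share above 60% was found in 13 separated members: Nt5dc2, Supt16, Rpgrip1, Anxa7, Nedd8, Shld2, Dgkh, Trim35, Arhgef3, Ndrg2, Oxnad1, Nek4 and Rnf17. The total was lower than parental in all 13 members, with a median log2 difference of -0.67 (range -1.16 to -0.10), where the median expected from the allelic ratio was -0.52. Their CAST counts had a median difference of 0.89. Supt16, a subunit of the FACT histone chaperone, went from 312 and 429 CPM to 249 and 216 CPM, and Anxa7, an annexin, from 115 and 198 CPM to 91.2 and 127 CPM, the second with overlapping groups. This list was formed after the values were seen and has no test of its own. It leaves out members that kept 129S1 counts in the clone, which are part of the total.

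Counts on CAST asked a second question, whether the CAST allele gave 2-fold the counts when its chromosome took the place of the 129S1 copy. Over the 208 separated members the median CAST difference was 0.98 on the log2 scale, where 1 stands for 2-fold, with members from -0.25 to 1.52. Of all 274 members, 6 differed from a 2-fold rise, all lower, by edgeR's quasi-likelihood test. Of 13951 genes, 0.129% were called lower (genes of other chromosomes were tested against no change). The 6 members were Gnpnat1, Rtraf, Styx, Gnl3 and Trim13, all separated, and the pseudogene Gm6158, which kept 85.0% of its counts on 129S1. With the block the number was 17, again all lower, with 0.337% of all genes called lower, adding Cnih1, Esd, Glud1, Gm4742, Gm5801, Gm6580, Gm8483, Rps24, Selenok, Tpm3-rs7 and Vdac2. The number of calls depended on which libraries were kept. The 6 members called without the block stayed below a 2-fold rise whichever library was left out. Their log2 differences from it ran from -0.72 (Styx) to -1.75 (Gm6158), both without d3 parental replicate 1. Without d3 parental replicate 1 there were 24 calls among the members (8.76%), in both directions, where 2.83% of all genes were called. Without parental replicate 2, clone replicate 1 or clone replicate 2 there were 0 (edgeR, with 22 members in each case at an unadjusted p under 0.05), where 0.069%, 0.0552% and 0.0551% of all genes were called.

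The 5 separated genes were those with the lowest 129S1 shares of all members, between 5.35% and 15.2%. Gnpnat1 makes N-acetylglucosamine 6-phosphate on the way to UDP-GlcNAc and lies at 45376334 to 45404913 on the minus strand. Its CAST counts were 119 and 125 CPM in the d3 parental line and 129 and 129 CPM in d3 clone 21, a log2 difference of 0.05. On 129S1 it had 8.10 and 5.97 CPM in the parental line and 0.328 and 0.17 CPM in the clone. CAST counts of Gnpnat1 thus differed little between the groups, and fell short of a 2-fold rise by 0.95 ± 0.16 on the log2 scale (adjusted p = 0.0138, and 0.000635 with the block).

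Styx codes for a catalytically inactive phosphatase and lies at 45351093 to 45422820 on the plus strand, so that Gnpnat1 lies inside it on the opposite strand. The CAST counts of Styx were 155 and 146 CPM in the parental line and 171 and 177 CPM in clone 21, without overlap (log2 difference 0.19). They fell short of 2-fold by 0.81 ± 0.15 (adjusted p = 0.038). Its d3 clone 12 libraries, with both alleles, gave 144 and 191 CPM on CAST, a range that holds both clone 21 values.

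Rtraf, a subunit of the tRNA ligase complex, lies at 19811351 to 19823824 on the minus strand. On CAST it had 186 and 283 CPM in the parental line and 208 and 229 CPM in clone 21, with the clone between the parental values (log2 difference -0.13, short of 2-fold by 1.13 ± 0.20, adjusted p = 0.0223). Gnl3, which codes for the nucleolar protein nucleostemin, lies at 31012433 to 31019152 on the minus strand. Its CAST counts were 324 and 381 CPM in the parental line and 379 and 331 CPM in the clone, again overlapping (log2 difference -0.017, short by 1.02 ± 0.18, adjusted p = 0.0177). Trim13, a ubiquitin ligase of the endoplasmic reticulum, lies at 61598247 to 61605946 on the plus strand and had 43.6 and 56.3 CPM on CAST, then 44.1 and 41.4 CPM (log2 difference -0.25, short by 1.25 ± 0.21, adjusted p = 0.0177).

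**Figure D4:**
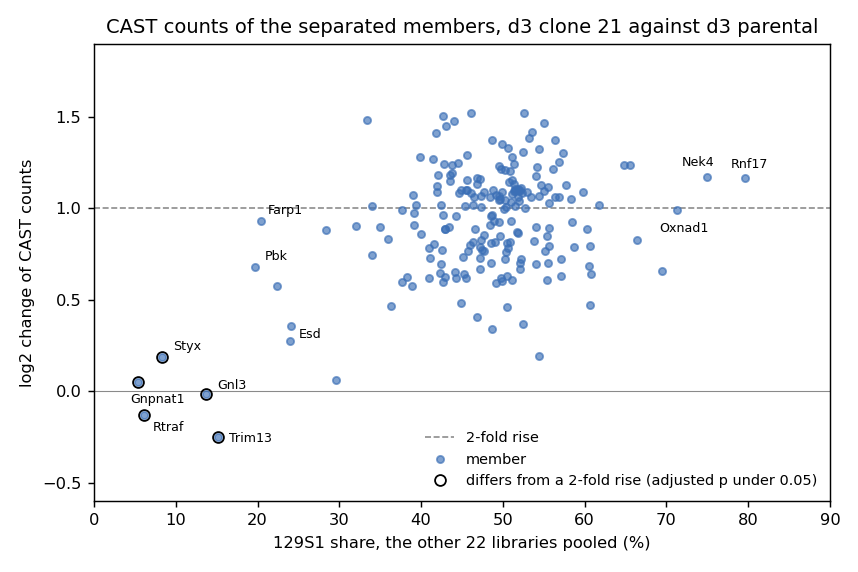
Log2 change of CAST counts in d3 clone 21 against the d3 parental line (y axis) for the 208 separated members, by their 129S1 share in the other 22 libraries pooled (percent, x axis); the dashed line is a 2-fold rise and open circles mark members that differed from it. The 5 circled members have the lowest shares, and Rnf17, Nek4 and Oxnad1 lie close to the dashed line.

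Beyond those 5 genes, 7 more separated members had a 129S1 share under 30%. Pbk, a mitotic kinase, differed by 0.68 on CAST (log2 scale), Farp1 by 0.93, Haus4, a subunit of the augmin complex, by 0.58, and the protease gene Ctsb by 0.88. For Esd, Ints6 and Selenok the values were 0.27, 0.35 and 0.06. Over the 12 members the median CAST difference was 0.23 and 8 were under 0.5, whereas 7 of the 183 separated members with shares of 30% to 60% were under 0.5, with a median of 1.01. The shared-sequence measure was also different in the 12 members: its median was 12.6%, with 31.6% in Rtraf, 28.7% in Trim13, 27.7% in Styx and 19.1% in Gnpnat1, against 0.58% in the 183 members and 0.2% in the 13 members with shares above 60%. Gnl3 had 2.37%. It overlaps Pbrm1 on the other strand and holds the small nucleolar RNA genes Snord69 and Snord19. The library kit kept strand, but whether strand was used in counting is not given in the sources used here, so reads of overlapping genes may not have been told apart. The part of shared or overlapping sequence in these results was not tested.

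The start regions of 4 separated members with low or high 129S1 shares are shown for orientation, from 250 bases before to 50 bases after the annotated start. Members that kept most of their 129S1 counts, such as Rpl15, had higher shares than these. They come from RefSeq on the build GRCm38.p6, in which 196 of the 274 members were found. Rtraf (chr14:19823774-19824073, minus strand) and Styx (chr14:45350936-45351235, plus strand) had low 129S1 shares, and Oxnad1 (chr14:32085478-32085777, plus strand) and Nek4 (chr14:30951127-30951426, plus strand) had high ones. Capitals mark matches on either strand to TATAAA (the TATA box), to CCAAT or to GGGCGG, with overlapping matches of a motif counted as 1. The sequence is that of the reference strain, which is neither 129 nor CAST, so it holds none of the differences between these alleles.
Rtraf: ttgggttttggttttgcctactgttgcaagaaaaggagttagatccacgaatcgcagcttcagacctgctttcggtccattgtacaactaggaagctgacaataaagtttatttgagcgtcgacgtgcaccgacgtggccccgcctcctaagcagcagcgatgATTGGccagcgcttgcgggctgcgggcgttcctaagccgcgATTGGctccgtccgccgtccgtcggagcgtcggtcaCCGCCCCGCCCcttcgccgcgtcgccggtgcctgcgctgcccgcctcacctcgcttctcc
Styx: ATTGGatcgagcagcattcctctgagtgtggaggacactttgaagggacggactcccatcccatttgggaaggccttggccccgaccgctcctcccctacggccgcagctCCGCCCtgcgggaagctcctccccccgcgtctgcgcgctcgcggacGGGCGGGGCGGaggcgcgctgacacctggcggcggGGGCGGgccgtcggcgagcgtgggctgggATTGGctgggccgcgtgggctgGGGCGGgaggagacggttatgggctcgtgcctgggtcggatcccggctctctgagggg
Oxnad1: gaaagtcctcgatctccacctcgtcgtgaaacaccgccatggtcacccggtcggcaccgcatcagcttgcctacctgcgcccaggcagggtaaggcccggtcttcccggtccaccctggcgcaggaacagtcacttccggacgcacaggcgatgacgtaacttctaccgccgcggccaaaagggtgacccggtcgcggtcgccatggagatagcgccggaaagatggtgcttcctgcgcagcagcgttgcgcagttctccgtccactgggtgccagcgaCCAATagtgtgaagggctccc
Nek4: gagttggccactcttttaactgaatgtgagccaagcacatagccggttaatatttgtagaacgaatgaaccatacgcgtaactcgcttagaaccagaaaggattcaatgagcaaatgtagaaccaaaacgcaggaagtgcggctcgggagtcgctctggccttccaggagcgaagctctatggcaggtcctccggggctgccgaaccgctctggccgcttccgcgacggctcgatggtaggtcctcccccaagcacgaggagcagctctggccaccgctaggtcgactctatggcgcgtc
Rtraf had 2 matches to CCAAT and 1 to GGGCGG, and Styx had 2 and 4. Oxnad1 had 1 match to CCAAT, Nek4 had none to any of the 3 motifs, and TATAAA was in none of the 4 windows. Of all 32851 windows in the table, 37.4% held CCAAT, 35.7% GGGCGG and 13.6% TATAAA. The windows held 33, 33, 29 and 23 CG pairs in the order printed, against a median of 7 over all windows.

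The comparison of each member's total with its own allelic ratio brings these results together. For each member the expected log2 change was that of 2 times its CAST share in the 20 libraries outside the comparison. This value also assumes 2 CAST copies in the clone. Over the 208 separated members the observed change was larger where the expected one was, with a slope of 0.65 (Pearson's r = 0.524, Spearman's rho = 0.463, across genes that share the same 4 libraries), and 190 members lay within 0.5 of their expected value. Over the 66 members with 5% or more left, the slope was 0.05 and r was 0.147. Limiting the set to the 184 members with under 2% left gave 0.75.

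**Figure D5:**
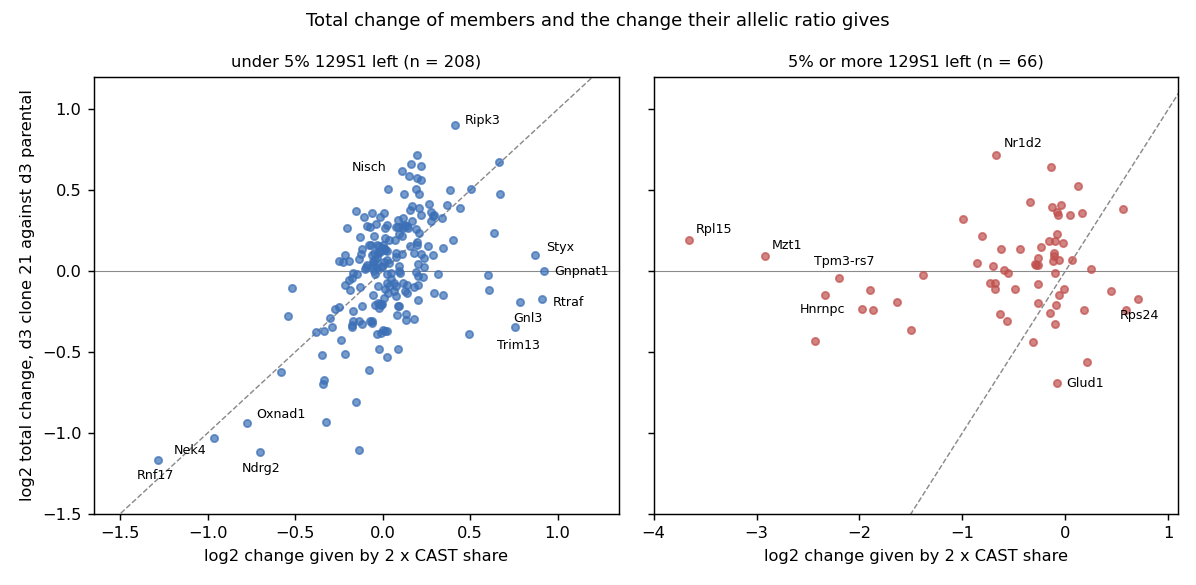
Observed log2 change of total counts in d3 clone 21 (y axis) against the change that 2 times the CAST share gives (x axis), for separated members (left) and members with 5% or more of 129S1 counts left (right); each point is a member and the dashed line marks equality. Of the separated members 190 lie within 0.5 of the line, and the called genes Gnpnat1, Rtraf, Styx, Gnl3 and Trim13 lie below it at the right, while members of the right panel lie between -0.69 and 0.72 over the whole range of expected changes.

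By share class, the 16 separated members with 129S1 shares from 30% to 40% had a median expected change of 0.33 and a median observed change of 0.34. The 91 members from 40% to 50% had 0.11 and 0.11. For the 76 members from 50% to 60% the medians were -0.08 and -0.01, for the 10 members from 60% to 70% they were -0.36 and -0.57, and for the 3 members above 70% they were -0.97 and -1.03. The 12 members under 30% had 0.67 expected and -0.01 observed, the widest gap of these classes, with a median of observed minus expected of -0.75. The classes above 60% and under 30% are small, and the values of the 3 above 70% are those of Rnf17, Nek4 and Oxnad1.

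Tested gene by gene with edgeR, 15 members differed from the expected total, where 0.338% of all genes tested were called, 0.252% above and 0.0861% below. Above it were 10 members: Rpl15, Mzt1, Hnrnpc, Timm23, Tpm3-rs7, Pabpn1, Bnip3l, Nr1d2, Gm8416 and Gm6158. All 10 members kept at least 58.5% of their counts on 129S1 in the clone. Mzt1, a subunit of the gamma-tubulin complex, had totals of 117 and 102 CPM in the parental line and 114 and 121 CPM in clone 21, overlapping, where a log2 change of -2.92 was expected (difference 3.01 ± 0.21, adjusted p = 3.35e-07). Timm23, part of the inner-membrane import channel of mitochondria, had 106 and 165 CPM and then 97.6 and 103 CPM, with -2.44 expected. For Rpl15 the totals were 692 and 655 CPM and then 827 and 710 CPM, with -3.66 expected.

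The share left on 129S1 in the clone was next taken off each member's allelic ratio. That share comes from the same d3 clone 21 libraries that are tested. Taking it off raises the expected total of members that kept 129S1 counts, so fewer calls above and more below follow in part from the step itself. By edgeR's test 35 members then had an unadjusted p under 0.05 in either direction. None was called above the expected total and 10 were called below it, where 0.166% of all genes were called and 0.111% were called below. Of these, 5 were below it without that step too: Gnpnat1 (-0.92 ± 0.14, adjusted p = 0.00279), Rtraf (-1.08 ± 0.19, adjusted p = 0.00882), Styx (-0.77 ± 0.14, adjusted p = 0.0139), Gnl3 (-0.97 ± 0.15, adjusted p = 0.00302) and Trim13 (-1.10 ± 0.19, adjusted p = 0.0061). The other 5, Cnih1, Gm4742, Gm6158, Gm8416 and Rps24, were called below it only after that step in the fits without the block. With the block and no correction, 31 members were called, 20 above and 11 below, with 0.64% of all genes called, 0.4% above and 0.24% below. Without d3 parental replicate 1 there were 46 calls among the members (16.8%), where 4.13% of all genes were called. Without d3 clone 21 replicate 2 there were 9, where 0.25% of all genes were called, and all 9 members were above, so that none of the 5 genes below remained.

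Members near an even ratio form most of the set. Tkt, the transketolase of the pentose phosphate pathway, had 495 and 478 CPM in the parental line and 485 and 506 CPM in d3 clone 21, overlapping, while its CAST counts went from 247 and 239 CPM to 484 and 505 CPM (log2 difference 1.00). Dlgap5, a spindle protein, had 209 and 225 CPM and then 244 and 281 CPM, and Psmb5, a catalytic subunit of the proteasome, had 98.8 and 142 CPM and then 98.0 and 86.2 CPM. In Dlgap5 and Psmb5 the groups did not overlap, yet neither difference passed the test (adjusted p = 1.00 for both).

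Members were grouped in 8 lists by function, and in none of them was a member called in total counts. Median log2 differences of the lists lay between -0.12 and 0.13, beside 0.03 for all members. For proteasome and ubiquitin genes (14 of 19 listed were members, among them Psmb5, Uchl3 and Psmd6) the median was -0.045, and for chromatin and transcription (17 of 26, among them Kat6b, Supt16 and Prmt5) it was 0.08. Replication, repair and cell division (11 of 16) had 0.08, RNA processing and transport (15 of 18) -0.01, protein synthesis and secretion (11 of 17) -0.12, mitochondria and metabolism (16 of 23) -0.01, signalling (14 of 20) 0.07, and cytoskeleton and adhesion (6 of 15) 0.13. In the same order, 2, 1, 1, 1, 0, 3, 3 and 1 members had an unadjusted p under 0.05, where 9.12% of all members and 2.38% of all genes did. With the block, Nek4 was called among the division genes and Oxnad1 among the metabolic genes.

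Some genes elsewhere in the genome work with products of members. The 28 other subunits of the 26S proteasome, partners of Psmb5, had a median log2 difference of -0.31. By edgeR's test 0 were called and 4 had an unadjusted p under 0.05, where 2.38% of all genes did. The 6 tested targets of BMP signalling, downstream of the member Bmp4, had a median of -0.09. A further list, 15 targets of E2F held back by the RB1 pathway, had -0.10, but Rb1 itself is not a member. In both lists 0 genes were called and 0 had an unadjusted p under 0.05. Proteasome transcripts summed to 4653 and 6715 CPM in the d3 parental line and to 4644 and 4692 CPM in clone 21. Parental replicate 2 was the highest of the 24 libraries. Parental replicate 1 lay between the clone values, so the difference in these sums rested on parental replicate 2.

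The count rule asks for counts on both alleles in the 22 libraries, so it limits how one-sided a member can be, and the members' shares are given as a description only. Pooled over the 22 libraries, 12 separated members and 3 others had a 129S1 share under 30%, and 13 separated members and 26 others had one above 60%. The range of a member's share over the 22 libraries had a median of 15.4 percentage points. Its median was 23.2 points in the 51 members with a mean under 200 counts and 9.40 points in the 57 members with a mean of 1000 or more. Among the latter, Tkt ranged from 48.8% to 54.0% and Hnrnpc from 86.9% to 93.1%, and the widest range, 22.6 points, was that of Tox4. Fdft1, an enzyme of cholesterol synthesis, ranged from 63.3% to 79.3%, and Cnih1, a cargo receptor of the secretory pathway, from 27.0% to 43.2%. Pspc1, just inside the rule with a mean of 50.1 counts on 129S1, ran from 36.7% to 64.1%.

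In the other 6 clones, the members' counts stayed on both alleles. The median member's log2 ratio of 129S1 to CAST moved by no more than 0.026 in any library of d3 clone 12, d6 clone 16, i7 clones 7 and 12 and i10 clone 18. In i12 clone 10 it moved by -0.21 and -0.20 against the i12 parental line, with 221 and 214 of 274 members lower, while the genes of other chromosomes moved by 0.01 and 0.00. The clone's own median shares were 50% and 50.3%, so it was the parental line that lay apart. The shift was seen along the length of the chromosome: in bins of 10 Mb with members the median ratio difference ran from -0.10 to -0.38, and total counts of the median member differed by -0.07 and -0.12. No member of i12 clone 10 was called in total counts or in allelic ratio by edgeR (0.0% and 0.00926% of all genes called). An unadjusted p under 0.05 was found for 5 members in total counts (1.8%, against 1.31% of all genes). In the ratio it was found for 38 members (13.9%, against 5.28% of all genes). Leaving the i12 parental libraries out of the expected change for d3 clone 21 again gave 15 members called, with a slope of 0.15 over all members.

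Counted over those 6 clones, 1 member was called in total counts. Trim35, a ubiquitin ligase of the tripartite motif family at 66297031 to 66311424 on the plus strand, was lower in i7 clone 12, at 30.8 and 30.3 CPM against 84.5 and 84.4 CPM in the i7 parental line (log2 difference -1.47 ± 0.20, adjusted p = 0.0114, with 0.0246% of all genes called). In counts, 129S1 went from 403 and 582 to 214 and 260, and CAST from 240 and 372 to 104 and 140, so both alleles were lower. With the block 27 members were called in that clone, 11 higher and 16 lower, where 6.27% of all genes were called, 3.52% higher and 2.75% lower. Rnf17 was among the lower ones there too (86.2 and 59.4 CPM, then 42.4 and 33.0 CPM, log2 difference -0.94, adjusted p = 0.00233 with the block), in a clone with both alleles. Gng2, a G protein gamma subunit, was another (180 and 146 CPM, then 78.8 and 75.2 CPM), and Bmp4, a secreted growth factor, among the higher ones (29.96 and 24.94 CPM, then 68.6 and 54.9 CPM).

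Dock5, which activates the GTPase Rac, was the only member of those clones called in its allelic ratio, also in i7 clone 12 (log2 difference -0.58 ± 0.14, adjusted p = 0.0237, with 2.33% of all genes called). In the other 5 clones 0 members were called in the ratio, where 0.0463% of all genes were called in d3 clone 12 and in d6 clone 16, 0.00926% in i7 clone 7 and in i12 clone 10, and 0.0% in i10 clone 18. The counts of Dock5 on 129S1 and CAST were 321 and 273, and 449 and 392, in the parental libraries, and 248 and 331, and 361 and 449, in the clone. The 129S1 allele was thus the higher in both parental libraries and the lower in both clone libraries. In d3 clone 12, d6 clone 16, i7 clone 7 and i10 clone 18, no member was called in total counts (edgeR), with 0.0123%, 0.0123%, 0.0% and 0.0% of all genes called. In that order 11, 0, 0 and 0 members had an unadjusted p under 0.05, where 4.39%, 0.751%, 0.295% and 0.788% of all genes did. The 11 members are 4.02% of the set.

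Members just inside the count rule were Pspc1 and Gmpr2, with means of 50.1 and 50.6 counts on 129S1, and Thtpa, with 50.2 on CAST. Just outside were Camk2g and Psme2, with 49.7 and 49.8 on 129S1, and Slc39a14 and Mtrf1, with 44.9 and 48.1 on CAST. Psme2, a proteasome activator subunit, had a mean of 414 counts on CAST, so it was left out through its 129S1 allele alone.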

How the data were processed

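The deposited values are raw counts per gene for each allele of each library, made by the authors. STAR and SAMtools with build mm10 are named in the submitters' processing notes, and the counting program, its strand setting and the rule for giving reads to alleles are not given in the sources used here. Gene identifiers were matched to GENCODE M21 (48838 of 48985).

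Total counts are the sum of both alleles. Fits used edgeR 4.0.16 (R 4.3.3) with its quasi-likelihood test, TMM scaling and its filter on low counts, over all 24 libraries and all genes, with Benjamini-Hochberg adjustment and a threshold of 0.05. Offsets set the tested value to a 2-fold rise of CAST counts or to 2 times the CAST share for chromosome 14 genes in d3 clone 21. The allelic ratio was fitted where both alleles averaged 10 counts or more. Per-library log2 differences had 0.5 counts added. Alternatives were DESeq2, other scaling and filters, other controls, other shares and leaving out libraries. The scripts were tested on simulated data.

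Libraries with the same replicate number in a recombination deviated together (r = 0.293 to 0.649 over 9 pairs of groups), so the number was taken to pair them. Same-numbered libraries of different recombinations had a median r of 0.196 (57 pairs, from -0.18 to 0.562), a relation that the block, set within each recombination, does not use. The number was a block in alternative fits, and values with the block stand beside results it changed. No 2 libraries agreed within sampling noise. By chi-square per degree of freedom, d3 parental replicate 2 stood at 46.0 and 66.3 from replicate 2 of d3 clones 21 and 12. Those 2 clone libraries stood at 15.5 from each other. For d3 parental replicate 1 and replicate 1 of the same clones the values were 5.52 and 5.64. Genes were named by fixed rules: members called in a test, the ends of the share range, the most counted of each function list, the most 129S1 counts left, the neighbours of the threshold, and the last member along the chromosome. Of the genes these rules name, 2 are not reported here. Nisch, Ripk3, Ndrg2, Tox4, the share ranges of Fdft1 and Cnih1, the members with shares under 30% or over 60% and the printed start regions were chosen after their values were seen. The members and lists were chosen with earlier results of these data known. Depth ran from 3286819 to 15581094 counts a library.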

Additional observations from a re-analysis of the deposited data

Results flagged for a closer look

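Rnf17 differed between the 2 clones of the d3 recombination. Its total was 69.5 and 94.4 CPM in d3 clone 12 and 23.6 and 30.4 CPM in d3 clone 21, a log2 difference of -1.6 between the clones (edgeR's quasi-likelihood test, adjusted p = 0.0111, lower in 2 of 2 libraries). Against the parental line, clone 12 had a log2 difference of 0.44 and clone 21 one of -1.16. In clone 12 the CAST counts were 16.6 and 26.2 CPM, above the 11.7 and 11.8 CPM of the parental libraries, and the 129S1 share was 76.1% and 72.2%. Rnf17 was also lower in i7 clone 12, which kept both alleles, with a log2 difference of -0.94 from its parental line (edgeR adjusted p = 0.00233 with the replicate block).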

How the results depend on the processing

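With 2 libraries a group, the number of members called moved more between settings than the values did, and the cause was not tested. Total counts, with 0 calls as reported, gave 4 with the replicate block, 1 with no filter on low counts, 3 with DESeq2's Wald test, 1 with d3 clone 12 as the control and 4 with that control and the block, and 0 to 31 when a library was left out. CAST counts against a 2-fold rise, with 6 calls, gave 17 with the block, 0 with only the 4 libraries of the comparison, where 2 residual degrees of freedom are left, 2 with d3 clone 12 as the control and 16 with that control and the block, and 0 to 24 without a library. Totals against the allelic ratio, with 15 calls, gave 31 with the block, 4 with only those 4 libraries, 28 with d3 clone 12 as the control and the block, and 9 to 46 without a library. In the other 6 clones the block gave 27 calls against 1. Leaving out d3 parental replicate 1 moved the calls most, and it raised each of the 3 counts rather than lowering it. That setting keeps d3 parental replicate 2 as the only control, the library that stood far from its same-numbered clone libraries. The d3 parental mean used throughout rests on that library and on replicate 1. The fits with d3 clone 12 and the block together, the block for the slope and median, and the share without the i12 parental line were added after the data were seen.

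The slope of observed on expected change over all members, 0.154 as reported, was 0.172 with the CAST share of the d3 parental libraries, 0.363 with the 129S1 share left taken off, 0.176 and 0.133 at 20 and 100 counts an allele, 0.103 against d3 clone 12, and 0.143 to 0.179 without a library. It was 0.753, 0.652 and 0.632 over members with under 2%, 5% and 10% left, limits chosen after the data were seen. The median of observed minus expected, 0.0626 as reported, was 0.0924, -0.0233, 0.0743 (at 100 counts), -0.0034, 0.0065, 0.0104 and 0.0298 in the same settings, 0.0755 with DESeq2 size factors, 0.0769 with the block, and 0.0118 to 0.148 without a library.

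Among the 52 gene results tried under the other settings, the sign turned in 14 cases, all with the 129S1 share left taken off, a step that by construction lowers the 129S1 part of these members: Timm23 -0.52, Bnip3l -0.51, Pabpn1 -0.25, Tpm3-rs7 -1.04, Hnrnpc -0.51, Gm6158 -1.12, Gm8416 -1.02, Fdft1 -0.27, Gm49342 -0.36, Prmt5 -0.0603, Fbxo34 -0.49, Phf11d -0.45, Gm38316 -0.45 and Pnp -0.59. The last 7 had not passed the threshold as reported. Another 394 cases kept their sign and their side of the threshold, 64 passed it newly and 62 no longer did.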

Other observations

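Ripk3, a kinase of necroptosis, had the highest total difference of the members in d3 clone 21, 0.90 ± 0.30 on the log2 scale (edgeR adjusted p = 1.00), with a 129S1 share of 33.4% elsewhere and an expected change of 0.42. In i7 clone 12, where the member kept both alleles, its total was 52.0 and 53.9 CPM against 30.6 and 33.5 CPM in the i7 parental line (log2 difference 0.72, adjusted p = 0.0215 with the replicate block). Ndrg2 had the second-lowest total difference in d3 clone 21, -1.12 ± 0.53 (adjusted p = 1.00), and was higher in i7 clone 12, at 38.3 and 39.1 CPM against 22.3 and 26.5 CPM (log2 difference 0.67, adjusted p = 0.0415 with the block).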
